A study of Mus musculus with 10 samples.

Results

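The genes described here encode the enzymes and membrane proteins of the lysosome, with Tfeb and Tfe3, which encode transcription factors of lysosomal genes. They were taken by name, 44 of the 40620 genes in the count table, and were followed by RNA-seq through osteoblast differentiation of MC3T3-E1, a line of mouse calvarial pre-osteoblasts used here as a single subclone. Subconfluent and confluent cells were kept in growth medium, and the cells collected at 24 h, 14 d and 21 d had received differentiation medium with ascorbic acid and β-glycerophosphate from confluence onwards. Each of the 5 stages had 2 libraries, named replicate A and B, and nothing states that these came from separate cultures, so the p-values measure the spread between these libraries, which may be technical.

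The lysosome is an acidic compartment in which proteases, glycosidases, lipases and phosphatases break down material taken up from outside or delivered by autophagy. Most of its soluble enzymes are tagged with mannose 6-phosphate in the Golgi and sorted by receptors, while the proton pump V-ATPase acidifies the lumen and heavily glycosylated proteins such as LAMP1 and LAMP2 line its membrane. TFEB and TFE3 move to the nucleus when the kinase mTORC1 is less active and bind E-box motifs of the CLEAR type, with the core CACGTG, in the promoters of many lysosomal genes. In bone, cathepsin K and tartrate-resistant acid phosphatase are best known from osteoclasts, the cells that resorb bone matrix, and osteoblasts use lysosomes for the turnover of collagen and other proteins.

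The promoters of the genes are shown first, because several of them carry this core sequence. RefSeq promoter windows on GRCm38.p6 ran from 250 bases before to 50 bases after a transcription start. Those of 40 of the 44 genes were examined, 47 windows in all. No window of Ctsb, Ctsh, Npc1 or Asah1 was examined, which for Npc1 does not mean that none exists. The sequence CACGTG, which reads the same on both strands, was in 25.5% of the 47 windows and in 7.15% of all 32851 promoter windows of the table. It was in a window of 12 genes: Arsa, Ctsa, Ctsd, Ctsf, Ctsl, Gaa, Gla, Glb1, Lamp1, Mcoln1, Naglu and Sgsh. The longer TCACGTGA, which contains CACGTG, was in 8.51% of these windows, those of Ctsa, Ctsd, Gla and Mcoln1, against 0.974% of all windows. TCACGTGA with a G before it and a C after it was in 0 of the 47 windows and in 0.326% of all windows. Such a match is a description of letters and not of binding. Ctsa had 2 windows, of which that at chr2:164832622-164832921 held no CACGTG and is not printed. The windows with TCACGTGA of the 4 genes are printed from 250 bases before to 15 bases after the start. They read 5′ to 3′ on the strand of the gene, with each CACGTG in capitals. The window of Lamp1, which held 4 copies at 61, 45, 28 and 15 bases before the start, and that of Hexa, which held none, follow the same format. They lie at chr2:164833523-164833787 (Ctsa, plus strand), chr7:142387813-142388077 (Ctsd, minus strand), chr8:3500269-3500533 (Mcoln1, plus strand), chr8:13158911-13159175 (Lamp1, plus strand), chrX:134600991-134601255 (Gla, minus strand) and chr9:59539290-59539554 (Hexa, plus strand).
Ctsa: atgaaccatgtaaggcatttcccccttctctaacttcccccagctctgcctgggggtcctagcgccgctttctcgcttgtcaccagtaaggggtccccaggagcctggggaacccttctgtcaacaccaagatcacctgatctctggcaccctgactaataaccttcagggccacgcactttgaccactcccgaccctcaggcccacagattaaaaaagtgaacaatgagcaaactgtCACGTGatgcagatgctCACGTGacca
Ctsd: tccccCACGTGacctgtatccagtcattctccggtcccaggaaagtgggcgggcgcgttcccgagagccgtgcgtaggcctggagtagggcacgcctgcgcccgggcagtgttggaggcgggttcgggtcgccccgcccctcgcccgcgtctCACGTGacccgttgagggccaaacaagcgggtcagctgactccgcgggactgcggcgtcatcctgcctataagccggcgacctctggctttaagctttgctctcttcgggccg
Mcoln1: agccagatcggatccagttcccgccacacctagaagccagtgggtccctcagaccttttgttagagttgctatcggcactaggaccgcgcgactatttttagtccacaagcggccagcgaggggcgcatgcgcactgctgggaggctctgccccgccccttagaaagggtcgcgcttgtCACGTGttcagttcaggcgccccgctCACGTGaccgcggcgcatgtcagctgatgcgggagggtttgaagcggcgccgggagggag
Lamp1: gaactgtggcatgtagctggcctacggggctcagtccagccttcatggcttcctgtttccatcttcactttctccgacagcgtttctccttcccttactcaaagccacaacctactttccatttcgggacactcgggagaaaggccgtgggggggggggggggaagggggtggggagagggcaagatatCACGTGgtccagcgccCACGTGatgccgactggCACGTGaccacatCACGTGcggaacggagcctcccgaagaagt
Gla: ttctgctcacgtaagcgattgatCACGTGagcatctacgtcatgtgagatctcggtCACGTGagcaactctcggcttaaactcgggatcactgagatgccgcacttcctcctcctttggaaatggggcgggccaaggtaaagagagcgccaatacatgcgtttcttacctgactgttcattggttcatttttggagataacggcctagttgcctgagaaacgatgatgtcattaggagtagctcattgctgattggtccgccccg
Hexa: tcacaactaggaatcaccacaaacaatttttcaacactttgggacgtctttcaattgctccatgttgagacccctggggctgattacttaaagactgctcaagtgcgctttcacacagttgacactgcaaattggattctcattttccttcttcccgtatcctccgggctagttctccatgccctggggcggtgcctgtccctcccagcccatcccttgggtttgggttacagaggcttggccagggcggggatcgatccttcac

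Levels are given as RPKM, the authors' reads scaled to gene length and to the number of reads, which allow genes of different length to be compared. Fold changes are from the read counts, fitted over all 10 libraries with edgeR's quasi-likelihood test and given with a standard error (SE), and a gene is said to have risen or fallen where the Benjamini-Hochberg adjusted p-value over all 20808 genes tested was under 0.05. Of the 44 genes, 40 passed the filter on low counts, and Ctsc, Ctsf, Ctss and Acp5 did not. Between 44736156 and 162939333 counts fell on genes per library, with a deep and a shallower library at 4 of the 5 stages and 2 deep libraries at 24 h. The 24 h replicates differed most, with an SD of the log2 ratio of A to B of 0.453 over the lysosomal genes, against 0.0804 to 0.156 at the other stages. Index sequences split the libraries, with 1 pair used up to 24 h and another at 14 d and 21 d, so stage and index pair cannot be told apart where a comparison crosses from the first set to the second. The comparison of 21 d with 14 d cells lies within an index pair. The osteoblast identity of the cells could be seen in Bglap, which encodes osteocalcin, has near-identical neighbours that may share its reads, and averaged 2.50 RPKM (SD 1.97, n = 2) before confluence and 1041 RPKM (SD 65.5, n = 2) at the end. Of 10 osteoblast markers, 8 had risen at 21 d against subconfluent cells and 0 had fallen, against 27.3% and 23.5% of all genes. From 14 d to 21 d, 2 of the markers rose and 4 fell (median log2 fold change -0.67), against 3.77% and 5.95% of all genes. In bulk RNA, a change in the number of cells of a type and a change in RNA per cell cannot be told apart.

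Lysosomal genes as a group were higher in mature than in proliferating cells. Of the 40 genes tested, 27 had risen at 21 d against subconfluent cells and 0 had fallen, where 50.7% of all genes tested passed the test, 27.3% higher and 23.5% lower. Falls also numbered 0 at an unadjusted p under 0.05 by edgeR, and 1, that of Gusb, by DESeq2. Under 24 other settings, Gusb passed the test as a fall in 5 and Ppt1 in 3. Arsb had a log2 fold change of -0.60 to -0.32 in all of them and passed in some. By an F test over the 5 stages, 28 of the 40 changed, against 48.9% of all genes. More than 2-fold rises were seen in 19 of them, against 16.3% of all genes, and more than 2-fold falls in 0, against 11.3%. The median log2 fold change of the 40 genes was 0.81, against 0.04 over all genes tested. Between the late stages, 16 of the 40 genes rose further from 14 d to 21 d and 1 fell, where 9.72% of all genes changed, 3.77% higher and 5.95% lower. Both 21 d libraries lay above both subconfluent libraries in RPKM for 32 of the 40 genes, where 39.1% of all genes did so, and above all 8 other libraries for 24 genes, where 16.7% did so. Of the 27 rises against subconfluent cells, 21 passed the test under all 24 other settings tried, while those of Acp2, Ctsz, Glb1, Lipa, Npc1 and Sgsh missed it under at least 1 setting.

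The summed level of the 44 genes was 2563 and 2599 RPKM in the subconfluent libraries, 2798 and 3017 in the confluent ones and 3522 and 3015 at 24 h. It was 3362 and 3258 RPKM at 14 d and 4356 and 4244 RPKM at 21 d, above every other library. The ratio of the 21 d to the subconfluent sum was 1.67 (SD 0.0348). The sum was dominated by Cd63, Psap, Lamp1 and Ctsd, which together made up 59.8% of it in subconfluent cells and 58.3% at 21 d. The share of Cd63 went from 24.4% to 16.0% and that of Psap from 16.8% to 20.8%. All 44 genes accounted for 0.243 ± 0.000919% (SD, n = 2) of the RPKM of all genes in subconfluent cells and for 0.330 ± 0.0129% (SD, n = 2) at 21 d. The share was 0.250 ± 0.00283% in confluent, 0.245 ± 0.0276% in 24 h and 0.264 ± 0.00332% in 14 d cells (SD, n = 2). At 24 h it was 0.2255% in replicate A, where the sum was 3522 RPKM, and 0.2645% in replicate B. The higher sums up to 24 h were therefore not matched by a like change in the share.

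**Figure D1:**
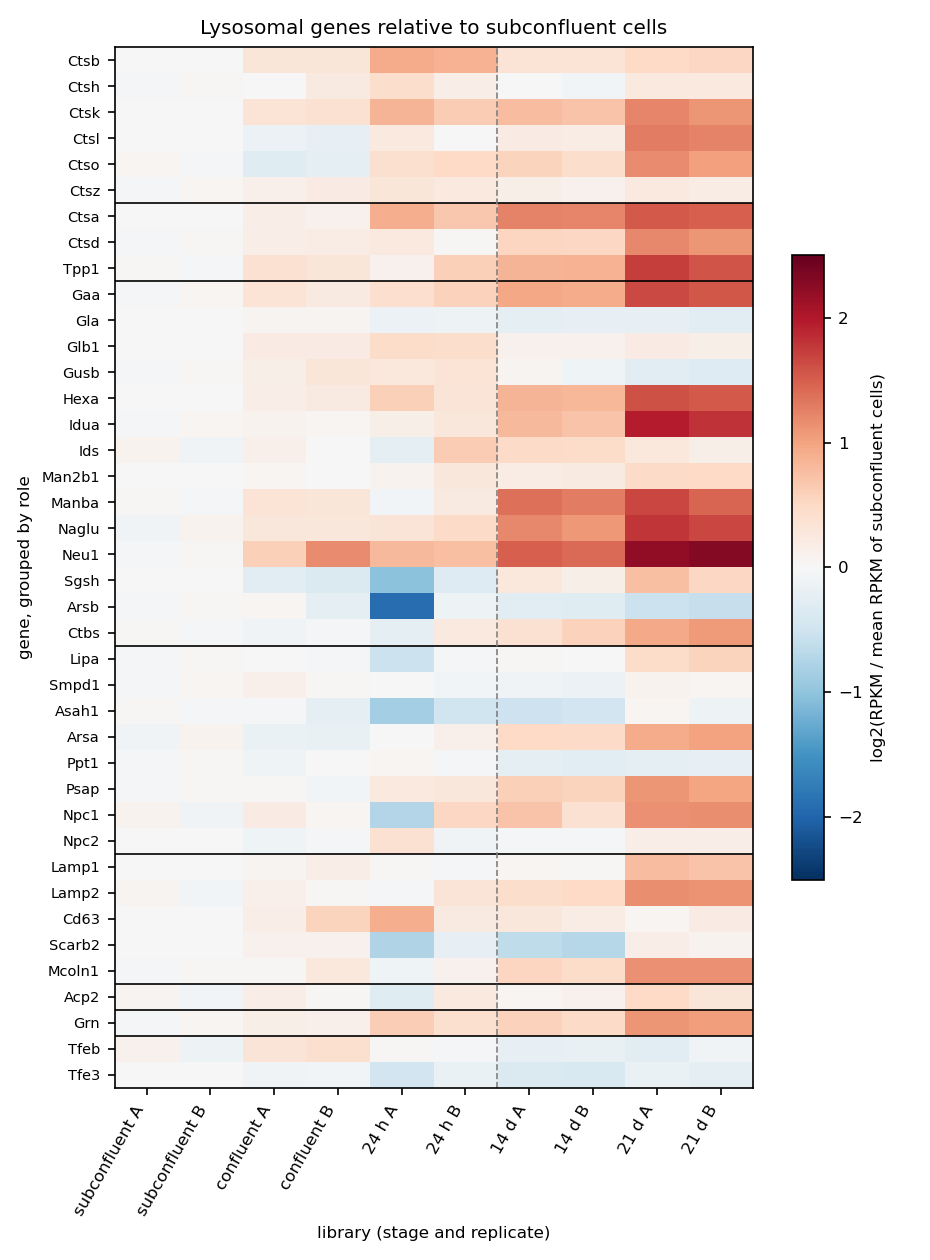
Heat map of the 40 lysosomal genes that were tested, as the log2 ratio of the RPKM in each of the 10 libraries to the mean RPKM of subconfluent cells. Rows are genes grouped by role with solid lines between groups, and the dashed line separates the 2 sets of libraries with different index pairs. The 2 columns at 21 d are red for most genes, while the rows of Tfeb, Tfe3, Gla, Gusb, Ppt1 and Arsb stay pale or blue, and replicate A at 24 h departs from replicate B in several rows.

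The papain-type cathepsins, cysteine proteases that cut proteins in the lysosome, comprised 9 genes, of which 6 were tested and 5 had risen at 21 d against subconfluent cells. Ctsk, encoding cathepsin K, a strong collagenase (chromosome 3, 95499256 to 95509362), was at 76.9 and 77.2 RPKM in subconfluent, 98.1 and 99.9 in confluent, 139 and 120 in 24 h, 132 and 127 in 14 d and 180 and 166 in 21 d cells. The 21 d libraries were above all others and the subconfluent libraries were the lowest. The log2 fold change of Ctsk between these stages was 1.28 (SE 0.11, adjusted p = 9.4e-05). Ctsl, which encodes cathepsin L (chromosome 13, 64359337 to 64370890), followed another course, with 47.0 and 46.6 RPKM in subconfluent, 42.2 and 40.6 in confluent, 55.4 and 47.4 in 24 h, 53.7 and 53.3 in 14 d and 113 and 110 in 21 d cells. Most of its rise therefore lay between 14 d and 21 d, where the log2 fold change was 0.99 (SE 0.11, adjusted p = 0.0019), and against subconfluent cells it was 1.37 (SE 0.11, adjusted p = 6.4e-05).

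Ctsb, encoding cathepsin B, an abundant protease with both endopeptidase and peptidyl-dipeptidase activity, peaked early. It was at 66.4 and 66.9 RPKM in subconfluent, 82.2 and 81.9 in confluent, 127 and 121 in 24 h, 84.6 and 84.6 in 14 d and 94.5 and 94.9 in 21 d cells, so that both 24 h libraries were above all others. Ctsb rose at 24 h against confluent cells by a log2 fold change of 0.69 (SE 0.09, adjusted p = 0.0082), fell by 0.43 from 24 h to 14 d (SE 0.09, adjusted p = 0.020) and was higher at 21 d than in subconfluent cells by 0.62 (SE 0.09, adjusted p = 0.0010). Ctso, encoding cathepsin O, rose already at 24 h, by 0.82 (SE 0.09, adjusted p = 0.0044). Its levels were 3.62 and 3.37 RPKM in subconfluent, 2.82 and 2.94 in confluent, 4.58 and 4.96 in 24 h, 5.14 and 4.77 in 14 d and 7.90 and 7.12 in 21 d cells, a log2 fold change of 1.22 from the first to the last stage (SE 0.09, adjusted p = 3.9e-05). Ctsz, encoding the carboxypeptidase cathepsin Z, was abundant and nearly flat, at 136 and 147 RPKM in subconfluent, 155 and 163.3 in confluent, 176 and 167 in 24 h, 157 and 153 in 14 d and 168 and 160 in 21 d cells. Its log2 fold change of 0.33 (SE 0.09, adjusted p = 0.020) kept adjusted p under 0.05 in 18 of 24 other settings. Ctsh, encoding the aminopeptidase cathepsin H, stayed between 9.41 and 13.4 RPKM in all libraries and did not pass the test (log2 fold change 0.37, SE 0.14, adjusted p = 0.058).

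The remaining 3 cathepsins of this type were practically without reads. Ctss, which encodes cathepsin S of antigen-presenting cells, had 2 and 0 counts in subconfluent, 0 and 6 in confluent, 3 and 1 in 24 h, 1 and 0 in 14 d and 0 and 1 in 21 d cells. Ctsc, encoding cathepsin C, which activates the serine proteases of granulocytes, had 3 counts in confluent replicate A, 2 in 24 h replicate B, 1 in 21 d replicate B and 0 in the other libraries. Ctsf, encoding cathepsin F, had 1 count in 14 d replicate B and 0 elsewhere. At these counts a difference between stages was not detectable for any of the 3 genes.

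The 3 other proteases of the group all rose more than 2-fold at 21 d. Ctsd, encoding the aspartic protease cathepsin D (chromosome 7, 142375911 to 142388038), was at 210 and 221 RPKM in subconfluent, 243 and 246 in confluent, 256 and 219 in 24 h, 312 and 306 in 14 d and 492 and 464 in 21 d cells. The 14 d libraries were above all earlier ones and the 21 d libraries above those, and the log2 fold change against subconfluent cells was 1.27 (SE 0.12, adjusted p = 0.00013). Ctsa, encoding cathepsin A, a carboxypeptidase that also protects β-galactosidase and neuraminidase 1 in a complex (chromosome 2, 164832873 to 164841032), was at 58.1 and 59.6 RPKM in subconfluent, 65.8 and 63.4 in confluent, 111 and 93.7 in 24 h, 140 and 137 in 14 d and 170 and 165 in 21 d cells. Its rise was stepwise, with log2 fold changes of 0.76 from confluent to 24 h (adjusted p = 0.016) and 0.56 from 24 h to 14 d (adjusted p = 0.020), and it reached 1.63 from subconfluent to 21 d cells (SE 0.12, adjusted p = 4.2e-05). In GENCODE vM21, Ctsa shares 495 of its 4715 exonic bases with Pltp on the opposite strand. The gene model and use of strand in counting are not stated, so reads there cannot be assigned. Tpp1, encoding tripeptidyl peptidase 1, was at 15.2 and 14.6 RPKM in subconfluent, 19.5 and 18.4 in confluent, 16.0 and 22.4 in 24 h, 27.0 and 27.2 in 14 d and 49.1 and 44.2 in 21 d cells. Its log2 fold change was 1.76 (SE 0.13, adjusted p = 4.1e-05).

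The largest changes were among the 14 enzymes that degrade glycans, glycosaminoglycans and glycogen, of which 10 had risen at 21 d against subconfluent cells, 7 of them more than 2-fold. Neu1, encoding the sialidase neuraminidase 1 (chromosome 17, 34931253 to 34935953), had the highest fold change of the 40 genes. It was at 4.18 and 4.32 RPKM in subconfluent, 6.42 and 9.70 in confluent, 7.43 and 7.19 in 24 h, 12.0 and 11.4 in 14 d and 19.7 and 20.8 in 21 d cells. The confluent replicates stood apart from each other, and the 14 d and 21 d libraries were above all earlier ones. The log2 fold change of Neu1 was 2.37 (SE 0.19, adjusted p = 5.2e-05), and it was also the 1 lysosomal gene to rise from subconfluent to confluent cells.

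Idua and Naglu, which encode α-L-iduronidase and α-N-acetylglucosaminidase of glycosaminoglycan breakdown, came next. Idua was at 2.19 and 2.31 RPKM in subconfluent, 2.39 and 2.33 in confluent, 2.48 and 2.72 in 24 h, 3.94 and 3.69 in 14 d and 8.79 and 7.88 in 21 d cells. Its level was flat until 24 h and higher at both later stages, and it was the single gene of the 40 with a more than 2-fold rise between 14 d and 21 d (log2 fold change 1.05, SE 0.09, adjusted p = 0.00079), where 1.52% of all genes rose and 2.45% fell by that much. Naglu was at 9.31 and 10.6 RPKM in subconfluent, 12.1 and 12.0 in confluent, 12.4 and 13.9 in 24 h, 22.9 and 21.2 in 14 d and 34.3 and 31.5 in 21 d cells. The log2 fold changes from subconfluent to 21 d cells were 2.01 for Idua (SE 0.09, adjusted p = 7.5e-06) and 1.84 for Naglu (SE 0.09, adjusted p = 9.3e-06). Another enzyme of heparan sulfate breakdown, the sulfamidase of Sgsh, lay between 2.69 and 9.14 RPKM, with its lowest value in replicate A at 24 h, and rose by 0.75 (SE 0.19, adjusted p = 0.013). Ids, encoding iduronate 2-sulfatase, which acts just before iduronidase, did not pass the test (log2 fold change 0.32, SE 0.22, adjusted p = 0.26).

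Hexa, encoding the α subunit of β-hexosaminidase (chromosome 9, 59539540 to 59565109), and Gaa, encoding acid α-glucosidase, which digests glycogen (chromosome 11, 119267887 to 119285454), were the most abundant glycosidases. Hexa was at 66.9 and 68.4 RPKM in subconfluent, 75.7 and 79.6 in confluent, 103 and 84.4 in 24 h, 123 and 120 in 14 d and 205 and 197 in 21 d cells. Gaa was at 46.9 and 49.9 RPKM in subconfluent, 61.2 and 56.5 in confluent, 65.0 and 72.2 in 24 h, 94.3 and 91.8 in 14 d and 151 and 142 in 21 d cells. For both genes the stage means rose at every step and both 21 d libraries were above all others. The log2 fold changes were 1.69 for Hexa (SE 0.13, adjusted p = 4.8e-05) and 1.72 for Gaa (SE 0.09, adjusted p = 1.1e-05). Manba, encoding β-mannosidase, moved in a single step, at 1.21 and 1.15 RPKM in subconfluent, 1.50 and 1.45 in confluent, 1.12 and 1.39 in 24 h, 3.04 and 2.88 in 14 d and 3.76 and 3.24 in 21 d cells. Between 24 h and 14 d it rose by a log2 fold change of 1.37 (SE 0.12, adjusted p = 0.00063), the single change of more than 2-fold among the 40 genes at that step, where 4.47% of all genes rose and 1.51% fell by that much, and its change from 14 d to 21 d of 0.17 did not pass the test (adjusted p = 0.47).

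Smaller rises at 21 d against subconfluent cells were found for Ctbs, encoding di-N-acetylchitobiase (log2 fold change 1.13), for Man2b1, encoding lysosomal α-mannosidase (0.60), and for Glb1, encoding β-galactosidase (0.29, adjusted p = 0.016). Glb1 was highest at 24 h, with 37.0 and 36.3 RPKM against 26.4 to 31.0 RPKM in all other libraries. The other enzymes of glycan breakdown did not pass the test for a rise. Gla, encoding α-galactosidase A, lay between 3.39 and 4.28 RPKM in all 10 libraries, and its difference between 21 d and subconfluent cells had a log2 value of -0.12 (SE 0.09, adjusted p = 0.32). Gusb, encoding β-glucuronidase, was at 28.3 and 29.7 RPKM in subconfluent, 30.3 and 26.9 in 14 d and 23.8 and 23.0 in 21 d cells, the lowest of all libraries, and fell by 0.36 from 14 d to 21 d (SE 0.09, adjusted p = 0.049). Arsb, encoding arylsulfatase B of dermatan sulfate breakdown, had the lowest fold change of the 40 genes, -0.45, with a wide error (SE 0.44, adjusted p = 0.43). Its 24 h replicates were at 7.08 and 24.2 RPKM. In GENCODE vM21, 1948 of its 6037 exonic bases are shared with the opposite-strand Gm26527, which had a mean of 2800 counts against 3092 for Arsb. The deposited length of Arsb is 2183 bases, so it is not known whether the shared bases were counted.

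**Figure D2:**
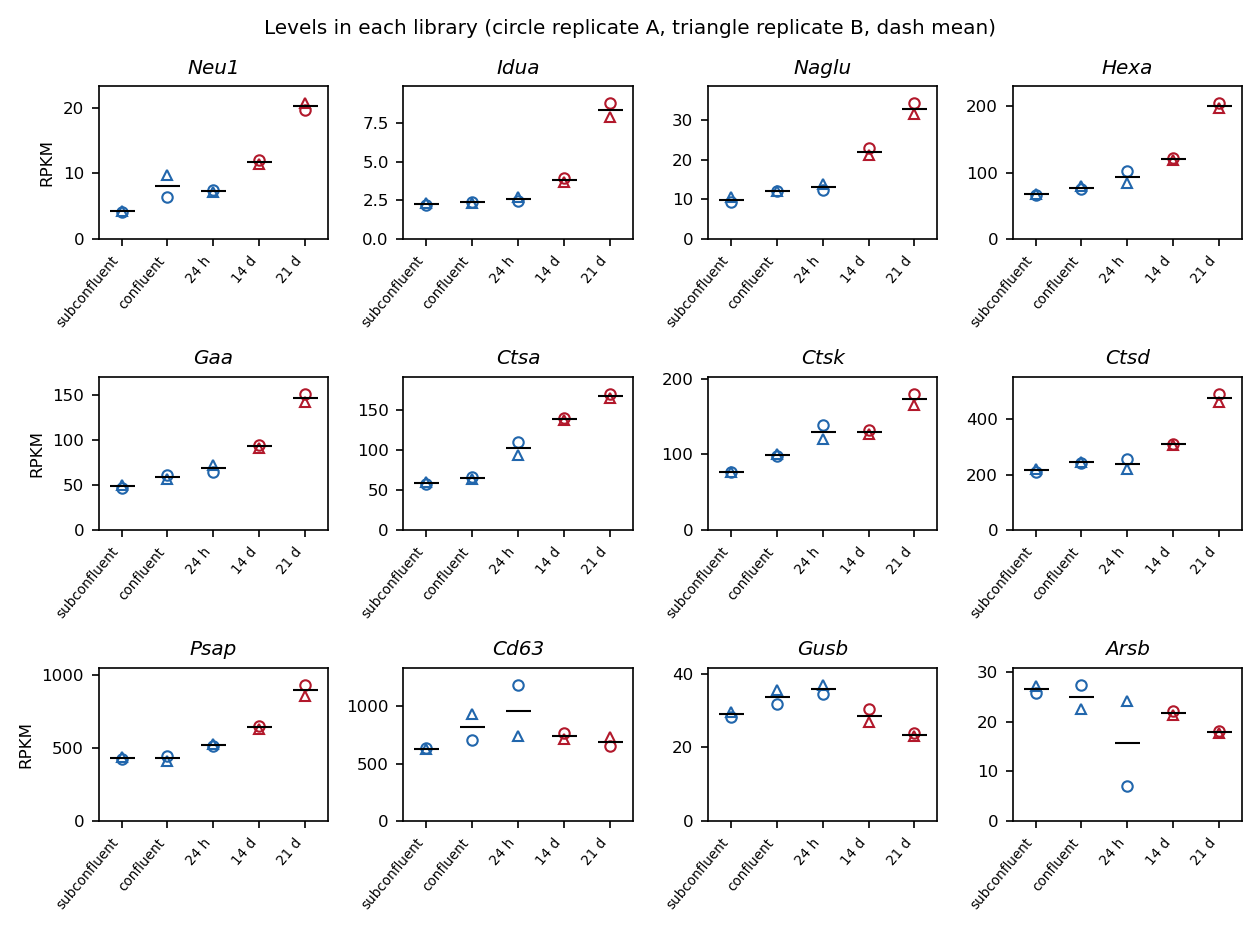
RPKM of 12 lysosomal genes in each library by stage, with circles for replicate A, triangles for replicate B, dashes for the mean of the 2 replicates, blue for the index pair of subconfluent, confluent and 24 h cells and red for that of 14 d and 21 d cells. Each vertical axis starts at 0. Neu1, Idua, Naglu, Hexa, Gaa, Ctsa, Ctsk, Ctsd and Psap are highest at 21 d, Cd63 is highest in replicate A at 24 h with 1184 RPKM, Gusb is lowest at 21 d and the Arsb replicates at 24 h are far apart.

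Among the 8 genes of lipid breakdown and sterol transfer, 4 had risen at 21 d against subconfluent cells. Psap, encoding prosaposin, the precursor of the saposins that help hydrolases reach sphingolipids (chromosome 10, 60277627 to 60302597), was at 425 and 441 RPKM in subconfluent, 444 and 414 in confluent, 514 and 524 in 24 h, 652 and 633 in 14 d and 931 and 858 in 21 d cells. It was the most abundant gene of the group at 21 d, and the libraries of each stage after confluence were above those of the stage before. Its log2 fold change was 1.16 (SE 0.10, adjusted p = 6.8e-05). Arsa, encoding arylsulfatase A, which desulfates sulfatide with the help of a saposin, was at 11.9 and 13.4 RPKM in subconfluent, 11.2 and 11.1 in confluent, 12.8 and 13.8 in 24 h, 17.9 and 17.6 in 14 d and 24.0 and 25.3 in 21 d cells, a log2 fold change of 1.08 (SE 0.08, adjusted p = 4.3e-05).

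Cholesterol leaves the lysosome through the NPC2 and NPC1 proteins after the acid lipase encoded by Lipa has freed it from its esters. Npc1 was at 3.94 and 3.50 RPKM in subconfluent, 4.31 and 3.84 in confluent, 2.25 and 5.35 in 24 h, 6.12 and 4.86 in 14 d and 8.27 and 8.30 in 21 d cells. The replicates at 24 h were more than 2-fold apart, and the log2 fold change at 21 d against subconfluent cells was 1.27 (SE 0.32, adjusted p = 0.014). Lipa rose by 0.63 (SE 0.13, adjusted p = 0.0047). Npc2, the most abundant of these at 60.2 to 84.9 RPKM, did not pass the test (log2 fold change 0.28, SE 0.17, adjusted p = 0.21). The acid sphingomyelinase gene Smpd1, the acid ceramidase gene Asah1 and the palmitoyl thioesterase gene Ppt1 had log2 fold changes of 0.18, 0.09 and -0.10 with adjusted p-values of 0.12, 0.59 and 0.38. Asah1 was lowest at 24 h and 14 d, between 36.7 and 47.5 RPKM, and between 55.7 and 68.5 RPKM at the other stages.

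Of the 5 membrane proteins, Lamp1, Lamp2 and Mcoln1 had risen at 21 d against subconfluent cells. Lamp1 (chromosome 8, 13159161 to 13175338) was at 265 and 266 RPKM in subconfluent, 277 and 297 in confluent, 272 and 259 in 24 h, 275 and 271 in 14 d and 452 and 435 in 21 d cells. It was thus within a narrow range up to 14 d and higher only in the 21 d libraries, with a log2 fold change of 0.63 from 14 d (SE 0.10, adjusted p = 0.0071) and 0.86 from subconfluent cells (SE 0.10, adjusted p = 0.00028). Lamp2 was at 29.8 and 27.1 RPKM in subconfluent, 31.0 and 29.0 in confluent, 28.0 and 35.5 in 24 h, 38.5 and 40.2 in 14 d and 63.5 and 62.2 in 21 d cells, and rose by 1.26 (SE 0.11, adjusted p = 8.8e-05). Mcoln1, encoding TRPML1, the channel that releases calcium from lysosomes, was at 9.12 and 9.43 RPKM in subconfluent, 9.49 and 11.2 in confluent, 8.64 and 10.0 in 24 h, 13.4 and 12.7 in 14 d and 20.5 and 20.5 in 21 d cells. Its log2 fold change was also 1.26 (SE 0.10, adjusted p = 5.3e-05).

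Scarb2 and Cd63 behaved otherwise. Scarb2, encoding LIMP-2, the receptor that carries glucocerebrosidase to the lysosome, was at 27.1 and 27.0 RPKM in subconfluent, 29.0 and 29.2 in confluent, 16.0 and 23.6 in 24 h, 17.4 and 16.6 in 14 d and 30.3 and 28.7 in 21 d cells. It fell by 0.56 from confluent to 14 d cells (SE 0.14, adjusted p = 0.019) and rose by 0.72 from 14 d to 21 d (SE 0.14, adjusted p = 0.018), and in 21 d against subconfluent cells it did not pass the test (log2 fold change 0.24, adjusted p = 0.19). Cd63, a tetraspanin of late endosomes and exosomes (chromosome 10, 128900989 to 128912822), was the most abundant gene of the group at every stage up to 14 d, at 635 and 623 RPKM in subconfluent, 705 and 930 in confluent, 1184 and 737 in 24 h, 764 and 717 in 14 d and 649 and 727 in 21 d cells. Its replicates were wide apart in confluent and 24 h cells and it passed the test in none of the 6 comparisons. For 21 d against subconfluent cells the log2 fold change was 0.25 (SE 0.25, adjusted p = 0.45).

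Grn, encoding progranulin, a secreted protein that is cut to granulins in lysosomes, was at 33.0 and 35.5 RPKM in subconfluent, 38.1 and 37.6 in confluent, 52.3 and 45.0 in 24 h, 50.9 and 47.5 in 14 d and 73.5 and 70.4 in 21 d cells. Its 21 d libraries were above all others, with a log2 fold change of 1.19 (SE 0.12, adjusted p = 0.00016). Acp2, encoding lysosomal acid phosphatase, lay between 7.58 and 13.2 RPKM and rose by 0.52 (SE 0.15, adjusted p = 0.027), whereas Acp5, encoding the tartrate-resistant acid phosphatase of osteoclasts, had 2 and 0 counts in subconfluent, 0 and 0 in confluent, 1 and 0 in 24 h, 2 and 1 in 14 d and 1 and 1 in 21 d cells. The transcription factor genes were low and passed the test in none of the 6 comparisons. Tfeb was at 3.58 and 3.05 RPKM in subconfluent, 4.13 and 4.39 in confluent, 3.37 and 3.25 in 24 h, 2.86 and 2.93 in 14 d and 2.78 and 3.13 in 21 d cells. Tfe3 was at 6.02 and 6.08, 5.67 and 5.76, 4.34 and 5.39, 4.72 and 4.66, and 5.40 and 5.13 RPKM at the same stages. The confluent libraries were the highest for Tfeb and the subconfluent ones for Tfe3. At 21 d against subconfluent cells the log2 fold changes were -0.05 for Tfeb (SE 0.12, adjusted p = 0.75) and -0.09 for Tfe3 (SE 0.09, adjusted p = 0.45). With upper-quartile factors both signs turned, as they did for Gla and Ppt1, under a scaling that moved the median of all genes from 0.04 to 0.17, and with library size alone the median of all genes was -0.12 there and -0.20 in 14 d against confluent cells, and Asah1 turned negative.

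**Figure D3:**
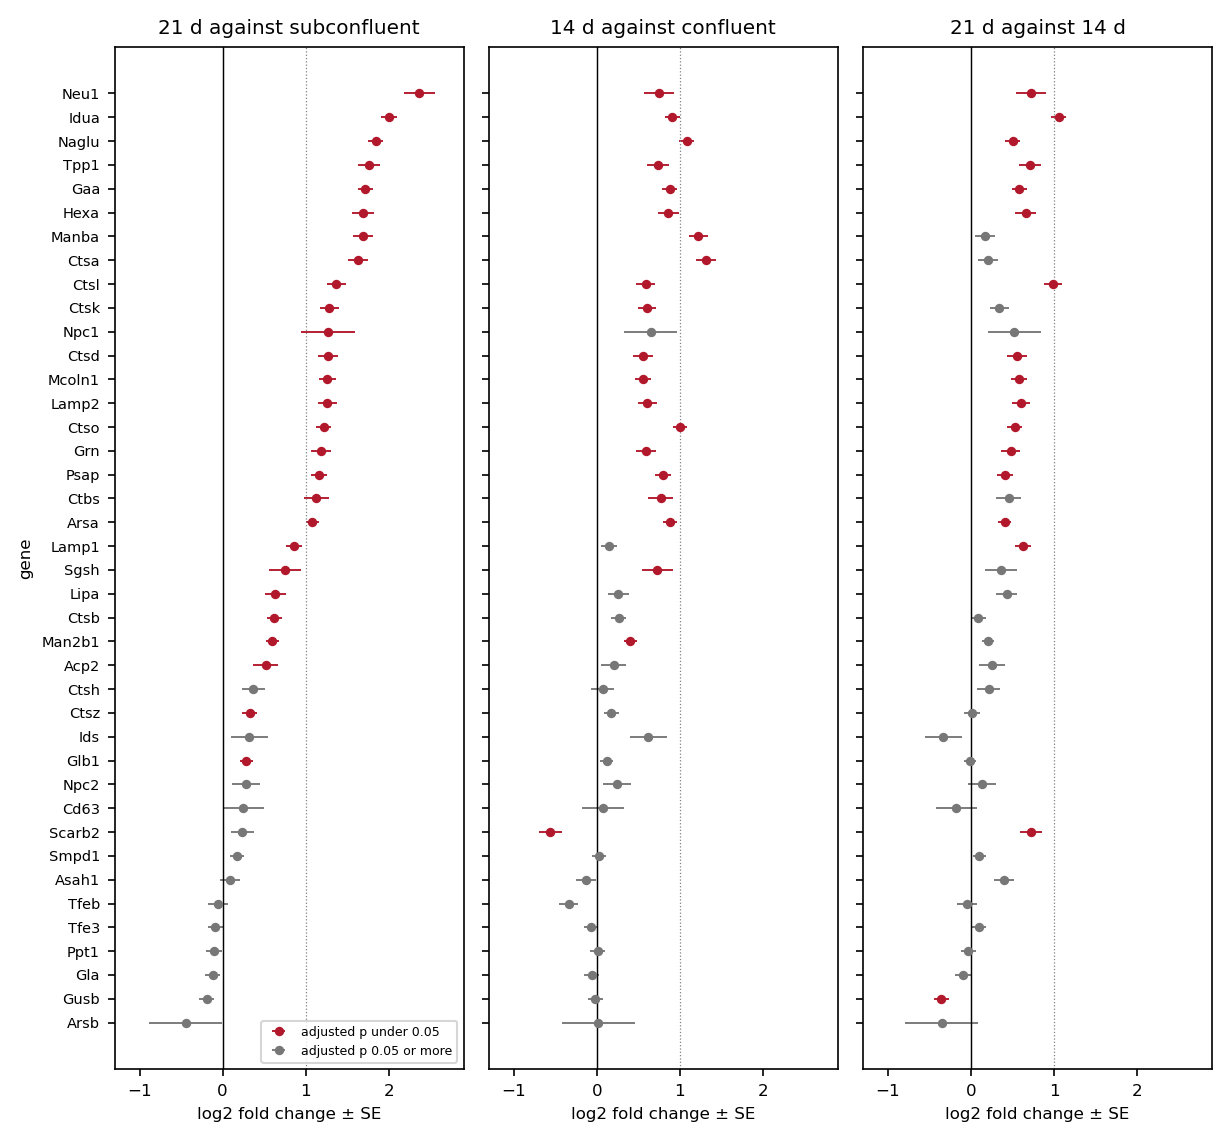
Log2 fold changes with standard errors of the 40 tested genes, ordered by the change from subconfluent to 21 d cells, for 21 d against subconfluent, 14 d against confluent and 21 d against 14 d. Red points had an adjusted p under 0.05 and grey points did not, and the dotted line marks 2-fold. The order runs from Neu1 at 2.37 to Arsb at -0.45, red points lie to the right of 0 except Scarb2 at -0.56 in 14 d against confluent cells and Gusb at -0.36 in 21 d against 14 d cells.

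More genes passed the test at the steps after 24 h than at those before it. The 24 h replicates differed most, and the index pair changed between 24 h and 14 d, so these counts alone do not date the changes. From subconfluent to confluent cells 1 of the 40 genes rose, Neu1 by 0.90 (adjusted p = 0.044), where 3.28% of all genes changed, 1.95% higher and 1.34% lower, and 0 fell. None of the 40 changed more than 2-fold at this step by edgeR, against 1% of all genes higher and 0.423% lower. At an unadjusted p under 0.05, 9 genes were higher and 2 lower. By DESeq2 3 genes rose and 1 fell there, and the count was 0 without either subconfluent library, without confluent replicate B or without any 14 d or 21 d library, and 8 without either 24 h library. From confluent cells to 24 h 4 genes rose, Ctso, Ctsa, Ctsb and Glb1, and 0 fell, where 5.15% of all genes changed, 3.59% higher and 1.57% lower. More than 2-fold changes were seen in 0 of the 40, against 1.76% of all genes higher and 0.365% lower. At an unadjusted p under 0.05, 14 were higher and 2 lower, and by DESeq2 11 rose and 2 fell. The count of 4 became 2 without either subconfluent library, 0 and 1 without confluent replicate A and B, and 11 and 25 without 24 h replicate A and B. From 24 h to 14 d 15 genes rose and Ctsb fell, where 17.3% of all genes changed, 9.08% higher and 8.21% lower. Of the 16 changes, 9 were left without either subconfluent library, 4 and 3 without 14 d replicate A and B and 10 without 21 d replicate B, and the count was 27 without 24 h replicate B. Against confluent cells, 14 d cells had 20 genes higher and Scarb2 lower, where 32.1% of all genes changed, 16.9% higher and 15.3% lower. Of these, Ctsa, Manba, Naglu and Ctso, 4 genes, had risen more than 2-fold and 0 had fallen so far (9.15% and 3.85% of all genes). Both 14 d libraries were above both confluent libraries for 23 of the 40, against 28% of all genes.

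The comparison of 21 d with 14 d cells was within an index pair. Its 16 rises were those of Arsa, Ctsd, Ctsl, Ctso, Gaa, Grn, Hexa, Idua, Lamp1, Lamp2, Mcoln1, Naglu, Neu1, Psap, Scarb2 and Tpp1, and the fall was that of Gusb. Both 21 d libraries lay above both 14 d libraries for 34 of the 40 genes, against 38% of all genes. Of the 16 genes, 14 had also risen in 14 d against confluent cells, and the remaining ones, Lamp1 and Scarb2, had not. Rises in both comparisons, which share the 14 d libraries, were seen in 14 of the 40 genes. Among all 20808 genes tested, 292 (1.4%) rose in both, out of 784 that rose from 14 d to 21 d. In turn Ctbs, Ctsa, Ctsk, Man2b1, Manba and Sgsh had risen in 14 d against confluent cells without passing the test from 14 d to 21 d. The 17 calls numbered 2 without 14 d replicate A, 14 d replicate B or 21 d replicate A, 4 without 21 d replicate B and 11 without either subconfluent library, and 27 without either 24 h library. With only the 14 d and 21 d libraries in the fit they numbered 29. Under all 24 other settings 2 of them, Idua and Ctsl, passed the test.

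Of the 12 genes with CACGTG in a promoter window, 11 were tested and 10 had risen at 21 d against subconfluent cells. The median log2 fold change of the 11 was 1.26, with a range from -0.12 for Gla to 1.84 for Naglu. Of the 28 genes with an examined window but without CACGTG, 25 were tested and 15 had risen. Their median was 0.60, with a range from -0.45 for Arsb to 2.37 for Neu1. Among all genes tested, 27.3% rose in this comparison and the median was 0.04. The share among all genes with CACGTG in a window was not determined. Whether the sequence had a part in these changes was not tested. Ctsa, Ctsd and Mcoln1, with TCACGTGA, rose by 1.63, 1.27 and 1.26, and Lamp1, with 4 copies of the core, by 0.86. Gla held 2 copies, at 227 and 194 bases before the start, and did not rise, while Hexa without any in its window rose by 1.69.

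Further genes of the lysosome were taken as lists of their roles, whose counts stand beside the 27.3% of all genes that rose and the 23.5% that fell at 21 d against subconfluent cells. In the list of 25 other hydrolases and activators, 17 had risen at 21 d against subconfluent cells and 2 had fallen, with a median log2 fold change of 0.55. Gm2a, encoding the activator protein of ganglioside breakdown, went from 1.34 and 1.09 RPKM to 5.76 and 6.28 RPKM (log2 fold change 2.42, adjusted p = 1.7e-05). Dpp7, encoding a dipeptidyl peptidase, went from 8.82 and 9.06 RPKM to 35.4 and 34.7 RPKM (2.09, adjusted p = 5.5e-05). The 2 genes that fell were Prcp and Lgmn, encoding a carboxypeptidase and the asparaginyl endopeptidase legumain, by 1.09 (adjusted p = 8.2e-05) and 0.74 (adjusted p = 0.00054). From 14 d to 21 d, 7 of the 25 rose and 1 fell, where 3.77% of all genes rose and 5.95% fell.

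In the list of 17 other membrane proteins and transporters, 11 had risen at 21 d against subconfluent cells and 1 had fallen, with a median of 0.65. Ctns, encoding the cystine exporter cystinosin, went from 2.92 and 2.65 RPKM to 13.8 and 13.4 RPKM (log2 fold change 2.41, adjusted p = 5.8e-06). Abcb9 had the highest fold change (2.69), at levels of only 0.0168 to 0.129 RPKM, and the two-pore channel gene Tpcn2 fell by 0.55 (adjusted p = 0.0011). Of the 17 subunits and accessory proteins of the V-ATPase, 11 had risen and 0 had fallen, with a median of 0.46. Atp6v0b of the membrane sector rose by 1.44 (SE 0.25, adjusted p = 0.0025) and Atp6v1g1 of the catalytic sector by 1.14 (SE 0.19, adjusted p = 0.0020). From 14 d to 21 d, 3 of the membrane proteins and 2 of the V-ATPase genes rose and 0 fell. At that step 3.77% of all genes rose and 5.95% fell.

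The genes of mannose 6-phosphate tagging and sorting were mixed, with 4 of 10 risen, 1 fallen and a median log2 fold change of 0.11 at 21 d against subconfluent cells. Gnptg, encoding a subunit of the phosphotransferase that starts the tag, went from 21.0 and 23.6 RPKM to 75.5 and 73.8 RPKM (1.86, adjusted p = 3.7e-05). Sort1, encoding the sorting receptor sortilin, rose by 2.20 from a low level (adjusted p = 6.9e-05), and Gga1, encoding a sorting adaptor, fell by 0.57 (adjusted p = 0.00038). In the list of MiT transcription factors and nutrient sensing, 14 of 15 genes were tested, 4 had risen and 1 had fallen, with a median of 0.14, and the 28.6% that rose were near the 27.3% of all genes. Mitf, encoding a relative of TFEB, went from 0.789 and 0.745 RPKM to 2.66 and 2.67 RPKM (1.91, adjusted p = 4.0e-05). Rragd, encoding a Rag GTPase, had the highest fold change (2.94, adjusted p = 0.00055) at 5 to 82 counts per library, and Rraga fell by 0.45 (adjusted p = 0.0014). In the autophagy list 16 of 17 genes were tested, 6 had risen and 0 had fallen, with a median of 0.44. Sqstm1, encoding the autophagy receptor p62, went from 107 and 112 RPKM to 249 and 229 RPKM (1.25, adjusted p = 4.8e-05), and Gabarapl1 rose by 1.03 (adjusted p = 0.00016).

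**Figure D4:**
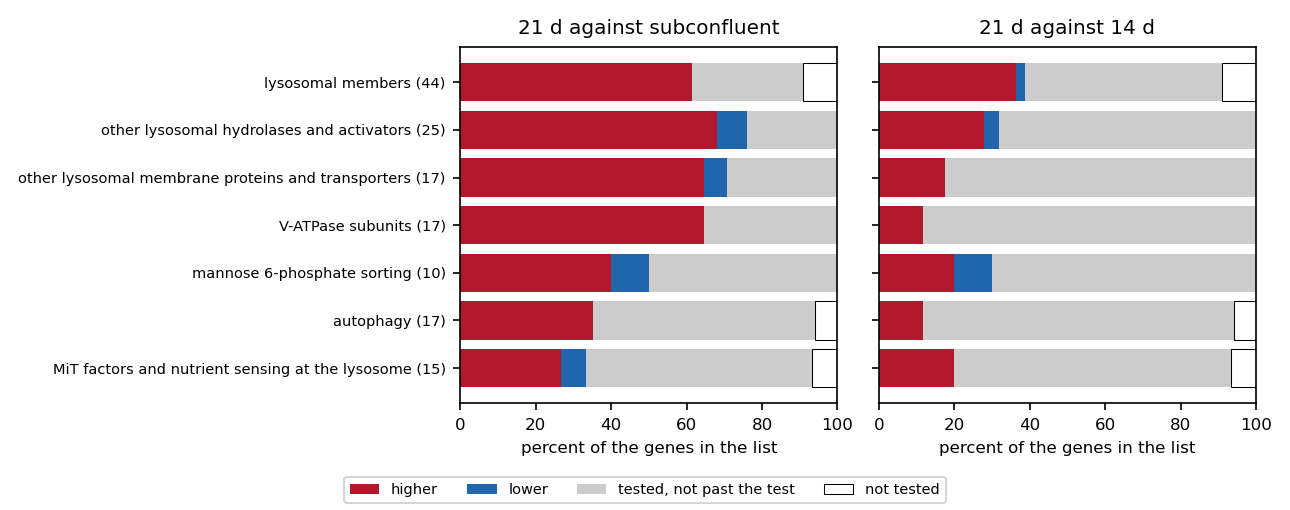
Share of each list, with the number of genes listed in brackets, that was higher, lower, tested without passing the test or not tested, for 21 d against subconfluent (left) and 21 d against 14 d (right), as percent of the genes in the list. Of the 44 lysosomal genes 27 were higher in the first comparison, and 16 were higher and 1 lower in the second.

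Secreted cathepsins meet inhibitors of the cystatin family. Of the 7 genes of this list, 3 were tested, and 2 had risen at 21 d against subconfluent cells. Cst3, encoding cystatin C, went from 179 and 195 RPKM in subconfluent and 188 and 227 in confluent cells to 881 and 629 at 24 h, 1684 and 1643 at 14 d and 1815 and 1971 at 21 d. It was above every lysosomal gene at 14 d and 21 d, with a log2 fold change of 3.45 against subconfluent cells (SE 0.21, adjusted p = 2.0e-05). Cst6, encoding cystatin E/M, rose by 2.79 (adjusted p = 0.0037) to 0.374 ± 0.0544 RPKM (SD, n = 2).

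Because Ctsk and Acp5 are known as osteoclast genes, markers of osteoclasts and macrophages were examined in the same libraries. Of 9 osteoclast markers, 3 passed the filter on low counts. Calcr and Dcstamp had 0 counts in all 10 libraries, which allows up to 3 counts per library. Tnfrsf11a, encoding RANK, had at most 1 count, Atp6v0d2 at most 2, Oscar at most 12 and Ocstamp at most 14 counts per library. Mmp9 was at 4.55 to 9.56 RPKM and Nfatc1 at 3.90 to 7.49 RPKM, and Itgb3, encoding integrin β3, was the single marker past the test, from 2.22 and 2.13 RPKM in subconfluent to 4.97 and 5.26 RPKM at 21 d (log2 fold change 1.35, adjusted p = 6.7e-05). The summed level of the 9 markers was 14.3 to 14.4 RPKM in the subconfluent libraries, 17.9 to 18.0 in confluent, 13.9 to 18.2 in 24 h, 17.9 to 18.4 in 14 d and 15.3 to 16.1 RPKM in 21 d cells. Ctsk was at 76.9 to 180 RPKM in the same libraries, and the part of other cells in its level was not tested.

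Of the 12 macrophage and blood markers, 8 were tested. At 21 d against subconfluent cells 2 of them had risen, where 27.3% of all genes rose. These were Fcer1g by 1.57 (adjusted p = 0.0058) at 0.305 to 2.56 RPKM and Lyz2 by 0.59 (adjusted p = 0.017) at 9.81 to 16.1 RPKM. Ptprc, the pan-leukocyte marker CD45, had 0 counts in all libraries, and Adgre1, C1qa, Mpeg1 and Laptm5 had at most 1, 1, 6 and 21 counts. Csf1r was at 1.83 to 3.19 RPKM, Cd14 at 1.98 to 2.51, Cd68 at 0.464 to 0.936 and Itgam at 5.00 to 9.86 RPKM. Tyrobp stood apart, at 179 RPKM in confluent replicate B, 214 in 14 d replicate B and 256 in 21 d replicate A but at most 0.842 RPKM in the other 7 libraries. Without Tyrobp the markers summed to 20.8 to 22.6 RPKM in subconfluent, 24.1 to 28.3 in confluent, 26.1 to 34.1 in 24 h, 27.9 to 29.2 in 14 d and 28.3 to 29.97 RPKM in 21 d cells, higher in every later library than in the subconfluent ones, and their part in the rise of the lysosomal genes was not tested. The SD of the log2 ratio of the replicates over the lysosomal genes was 0.156, 0.0804 and 0.095 at the 3 stages with a Tyrobp-high library.

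**Figure D5:**
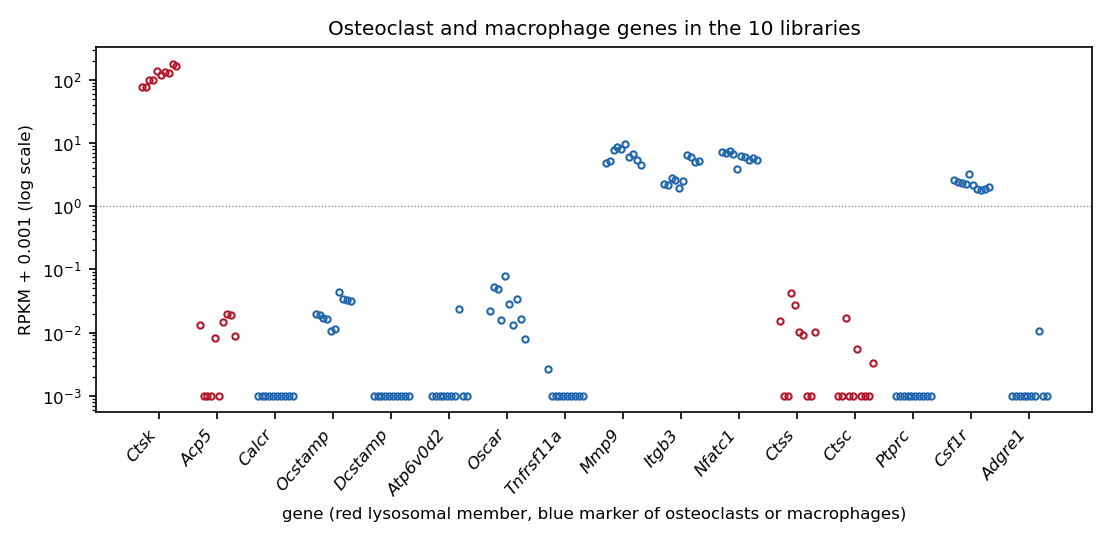
RPKM on a log axis, with a small constant added so that 0 can be drawn, with 1 point per library in the order of the stages. Ctsk, Acp5, Ctss and Ctsc are in red. The 9 osteoclast markers are in blue, with Ptprc, Csf1r and Adgre1 alone from the macrophage and blood markers. Lyz2, Itgam, Fcer1g, Tyrobp and the others of that list are not drawn. The dotted line marks 1 RPKM. Ctsk lies between 76.9 and 180 RPKM, while Acp5, Ctss, Ctsc, Calcr, Dcstamp, Ptprc and Tnfrsf11a lie at the floor of the plot or close to it.

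In GENCODE vM21, exons of 15 of the 44 genes overlap those of another gene, on the opposite strand for all of these except Glb1. Glb1 shares 165 bases with Tmppe on its own strand. Deposited gene lengths can differ from these exon totals, with 2183 against 6037 bases for Arsb and 5243 against 3474 for Grn. Which of the shared bases were counted is therefore not known. The overlapping gene had far fewer counts in some cases, such as 70.9 on average for Tmem202 beside Hexa with 13609. Npc1 shares 511 of its 11317 exonic bases with Rmc1, which had 1202 counts on average against 2023, and Sgsh shares 955 of 4414 with Card14, which had 302 against 793. The other gene was of like or higher count for Ctsa and Arsb, described above, and for Ctsz, Idua and Ppt1, which share 10, 124 and 129 exonic bases with Nelfcd, Dgkq and Cap1.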

How the data were processed

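RNA-seq libraries of MC3T3-E1 cells, 2 per stage at 5 stages, were read as 51-base pairs. The submitters' processing notes name FastQC, TopHat2 2.0.9, R 3.0.1 and the genome build mm10. The counting tool, annotation and use of strand are not given in the sources used here. The authors deposited read counts per gene without normalization, 44736156 to 162939333 per library, and RPKM values, for which the authors scaled counts to gene length and to a read total that lay below the summed counts of each library. For 2 libraries sequenced in 2 lanes, the merged column was used. Gene identifiers were matched to GENCODE vM21 on GRCm38, with a symbol for 39547 of 40620.

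Counts were fitted in edgeR 4.0.16 (R 4.3.3) after filterByExpr and TMM, with 5 groups over 10 libraries, quasi-likelihood tests for 6 comparisons and an F test, and Benjamini-Hochberg adjustment over 20808 genes. Standard errors were obtained as the log2 fold change over the root of F. Summed levels and ratios come from RPKM without a test. The pipeline was tested on simulated data. Alternatives included DESeq2 1.42.0 and limma 3.58.1 on log2(RPKM + 1) and log2(RPKM + 0.1), other scalings and filters, and each library left out. The genes and lists were chosen with earlier results of these data known. Values in every library are given for the 10 genes with the highest mean RPKM, the 10 most risen at 21 d, the transcription factors and genes under 1 RPKM on average, with others added where they differed. Of each list, the 2 highest fold changes past the test in each direction were eligible to be named, with all osteoclast and macrophage markers.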

Additional observations from a re-analysis of the deposited data

How the results depend on the processing

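The number of lysosomal genes past the test stayed within 1.5 times of 27 in 21 d against subconfluent cells under every scaling, filter, tool and left-out library tried, from 22 to 35, and that of the F test over the 5 stages, 28, ranged from 24 to 38. Requiring more than 2-fold left 4 genes in 14 d against confluent, 0 in confluent against subconfluent, 0 in 24 h against confluent, 1 each in 14 d against 24 h and 21 d against 14 d. With only the groups compared in the fit, these last 4 comparisons gave 0, 0, 0 and 29 genes. Without the 24 h libraries, confluent against subconfluent gave 8 genes and 21 d against 14 d gave 27. With log2 library size as a covariate the counts were 0 in confluent against subconfluent, 9 in 14 d against 24 h, and 11 in the step from 14 d to 21 d. DESeq2 gave 4 genes in confluent against subconfluent and 13 in 24 h against confluent, removal of the trend with gene length gave 9 in the latter, and no filter gave 10 in 14 d against 24 h. Leaving out 1 library gave 0 to 8 genes in confluent against subconfluent, 0 to 25 in 24 h against confluent, 3 to 27 in 14 d against 24 h, and 2 to 27 in the step from 14 d to 21 d. The ratio of the summed levels was 1.81 from TMM-scaled counts per kilobase and also without the 3 most abundant genes. The cause of these changes was not tested. With fewer libraries the spread rests on fewer degrees of freedom.

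The A to B differences correlated between stages by -0.184 to 0.0995, so no shared difference between the replicate letters was seen. These values cannot settle whether equal letters mark paired cultures. With the letter as a block, the counts were 27, 21, 0, 3, 13 and 12 for 21 d against subconfluent, 14 d against confluent, confluent against subconfluent, 24 h against confluent, 14 d against 24 h, and 21 d against 14 d. Signs turned for genes that did not pass the test in 21 d against subconfluent cells. With upper-quartile factors Gla was at 0.0094, Ppt1 at 0.022, Tfeb at 0.075 and Tfe3 at 0.041. Tfeb was at 0.0036 with at least 10 counts in every library, and from -0.20 to 0.053 when 1 library was left out. Asah1 was at -0.072 with library size alone, -0.0316 with limma on log2(RPKM + 1) and -0.0320 on log2(RPKM + 0.1), and from -0.0058 to 0.17 when 1 library was left out. Of 2455 values of single genes under other settings, 2044 kept their direction and side of the threshold, 365 kept their direction and lost the call, 35 gained it and 11 turned sign. With 2 libraries per stage, small changes are not resolved, and intervals of counting error do not cover the spread between cultures.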
